A study of Mus musculus with 8 samples.

Results

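Collagens are secreted or membrane-bound matrix proteins, and the genes described here are the collagen chain genes outside the type IV family. They were chosen by name: every non-control probe of the array whose gene name is Col, a type number, the letter a and a chain number, with the Col4a genes left out. The rule used no measured value and gave 50 probes for 34 genes, out of 25332 named genes on the array. After a filter on dim probes 30 of these genes were tested, among 20132 genes in all. The tested genes are 11 fibrillar chains, 7 of the group that sits on fibrils, 4 transmembrane chains, 2 of type VI, 2 of type VIII, 2 multiplexins, Col7a1 and Col28a1. Of the 30, 28 were well above background on all 8 arrays.

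The study used 129SV mouse pups, 3 days old, that were wild type or knockout for claudin-7 (Cldn7), a protein of epithelial junctions and of the basolateral membrane of gut cells. Total RNA came from pieces of small or large intestine, 2 cm long, labelled with Cy3 and hybridised to 1-colour Agilent SurePrint mouse arrays. The 4 groups are wild-type small, knockout small, wild-type large and knockout large intestine, with 2 arrays each, numbered 2 and 3, and no animal was treated. The series is titled as a gene-targeting knockout; the labels name no Cre or promoter, and they do not give the number of pups per sample or say whether the segments of a number came from the same pup. P-values therefore measure only the spread between these samples, which may be technical.

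Collagen chains wind in threes into a triple helix, which needs a glycine at regular steps along the chain, so that the coding sequence repeats a codon beginning with GG every 9 bases. Fibroblasts and smooth muscle cells of the gut wall make most of the fibrillar chains, which are hydroxylated and folded in the endoplasmic reticulum, trimmed outside the cell, crosslinked by lysyl oxidases and decorated by leucine-rich proteoglycans. Other types form networks, anchor epithelia to the tissue below, or span the membrane of the cell that makes them. These arrays measure whole gut wall, so fewer cells of a type and less RNA per cell cannot be told apart.

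The repeat can be read in the probes themselves. A run of at least 5 GG-codons, spaced by 9 bases, was found in 3 of the 50 collagen probes, which is 6% of them, against 17 of the 55631 other probes (0.0306%). The 3 probes are shown because each lies in the triple-helix code of its gene, with the repeating glycine codons in capitals, 5′ to 3′ on the strand of the transcript. Their mm9 positions per the file are chr4:47283786-47283845 (+) for Col15a1, chr4:129756457-129756516 (+) for Col16a1 and chr3:130270497-130270556 (+) for Col25a1.
Col15a1: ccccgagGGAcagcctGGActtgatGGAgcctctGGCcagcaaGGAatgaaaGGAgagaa
Col16a1: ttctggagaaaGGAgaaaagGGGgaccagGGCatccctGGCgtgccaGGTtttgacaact
Col25a1: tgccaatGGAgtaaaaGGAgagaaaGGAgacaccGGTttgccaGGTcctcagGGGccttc
The Col16a1 helix probe differed by 1.32 (log2) between knockout and wild-type small intestine, beside 1.37 for the brighter probe that stood for the gene. In the large intestine the same probe differed by -0.37, beside -0.58 for the brighter one.

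Promoters are shown for all 6 genes that rose in knockout small intestine (below), because windows of genes that moved together can be read side by side. RefSeq (GRCm38.p6) gave 30 promoters for 27 of the 34 genes, and each line holds the 110 bases before the transcript start, 5′ to 3′. Capitals mark GGGCGG (a GC box), CCAAT and TATAAA, on either strand, so that CCGCCC and ATTGG are the reverse complements. Col18a1 has 2 starts, a distal one (chr10:77166531-77166640, minus strand) and a proximal one (chr10:77113706-77113815, minus strand). The others are Col8a1 (chr16:57754738-57754847, minus strand), Col11a1 (chr3:114030430-114030539, plus strand), Col13a1 (chr10:61979109-61979218, minus strand), Col16a1 (chr4:130047730-130047839, plus strand) and Col20a1 (chr2:180986425-180986534, plus strand).
Col18a1 distal: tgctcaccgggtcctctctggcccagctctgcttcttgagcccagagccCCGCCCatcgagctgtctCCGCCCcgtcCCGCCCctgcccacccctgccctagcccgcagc
Col18a1 proximal: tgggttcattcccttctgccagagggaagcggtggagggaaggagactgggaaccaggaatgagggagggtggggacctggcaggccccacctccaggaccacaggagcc
Col8a1: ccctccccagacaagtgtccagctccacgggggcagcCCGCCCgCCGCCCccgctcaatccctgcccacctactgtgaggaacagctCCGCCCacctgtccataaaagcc
Col11a1: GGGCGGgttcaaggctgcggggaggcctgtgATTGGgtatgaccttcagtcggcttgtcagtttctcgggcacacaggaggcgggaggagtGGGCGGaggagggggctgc
Col13a1: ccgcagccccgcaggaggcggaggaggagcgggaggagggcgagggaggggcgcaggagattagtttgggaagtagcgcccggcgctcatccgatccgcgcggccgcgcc
Col16a1: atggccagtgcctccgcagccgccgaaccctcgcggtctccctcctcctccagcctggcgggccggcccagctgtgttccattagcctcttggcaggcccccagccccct
Col20a1: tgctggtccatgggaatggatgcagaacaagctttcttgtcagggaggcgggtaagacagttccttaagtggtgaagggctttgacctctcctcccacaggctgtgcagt
Of these 7 windows 3 hold a marked motif, and 4 hold none.
Within 250 bases before the start, GGGCGG stood in 17 of the 30 collagen promoters, or 56.7%, and in 32.7% of all 32851 promoters. CCAAT stood in 9 (30.0% against 33.8% of all) and TATAAA in 5 (16.7% against 12.4%). The CArG box, the serum response factor motif of muscle genes, stood in 0 of 30 and in 1.47% of all. These letters are a description of the windows, and binding was not measured.

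Levels are given as log2 of the background-subtracted signal minus the 75th percentile of the array, so that 0 is the signal at that percentile; a level of one probe cannot be set against that of another. The targeted gene matched its labels: Cldn7 was 20.2-fold lower in knockout than wild-type small intestine (log2 -4.34 ± 0.39 SE, limma adjusted p = 0.00802) and 11.4-fold lower in large intestine (-3.52 ± 0.39, adjusted p = 0.0341), n = 2 arrays per group. Epithelial genes of the small intestine were lower in the wild-type large than small intestine for 7 of 7 tested, and 4 of 7 large-intestine genes were higher and 2 lower. Array 2 of the wild-type large intestine and array 3 of the knockout large intestine carried more pancreas transcripts than the other large-intestine arrays. The summed level of 6 markers was 12.7 and 14.2 on them, against 2.08 and 2.62 on the others. On small-intestine arrays 2 and 3 the same sum was 14.5 and 19.0 in wild type and 0.69 and 0.49 in knockout. Nearly all of the wild-type small-intestine sum came from Ctrb1, at 3.84 and 4.24, against -1.32 and -2.78 in knockout. Amy2a5, Prss1 and Pnlip were well above background on no small-intestine array. These small-intestine sums therefore do not stand for the list as a whole. Array 2 of the knockout large intestine carried more liver transcripts (summed level of the tested markers 86.2) than the other large-intestine arrays (21.4 to 42.5). All 8 arrays lie on 1 slide, and each group fills a column of its own there; an effect of the slide column and one of the group cannot be told apart.

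In the small intestine, collagen genes read higher in the knockout. Of 30 tested, 6 rose at an adjusted p under 0.05 (limma, 1 mean per group, Benjamini-Hochberg over all genes) and 0 fell; of all genes, 6.38% rose and 3.51% fell. The 6 are Col18a1, Col20a1, Col16a1, Col13a1, Col8a1 and Col11a1, from 5 structural classes. The difference was above 0 for 27 of 30 (42.8% of all genes), with a median of 0.97 against -0.10 over all genes. Both knockout arrays read above both wild-type arrays for 26 of 30 (26.6% of all genes) and below them for 2 (32.7% of all genes), and 19 had an unadjusted p under 0.05 (31.4% of all genes).

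**Figure D1:**
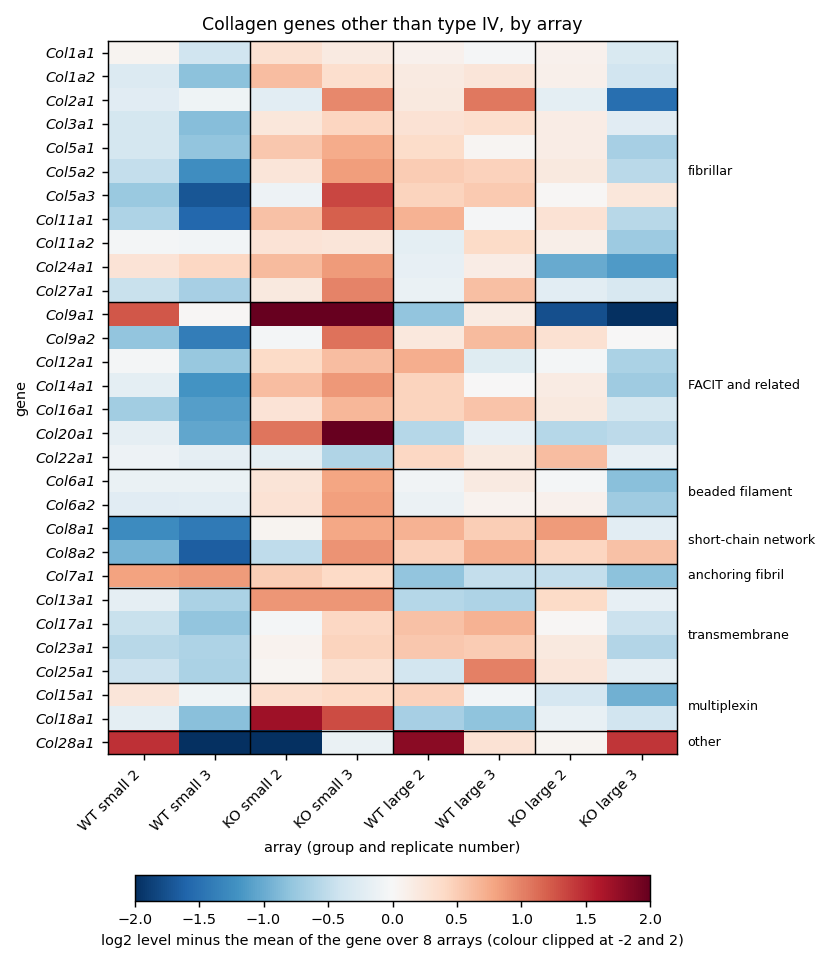
Log2 level of the 30 tested collagen genes (rows, grouped by structural class) on the 8 arrays (columns), each minus the mean of that gene over the arrays, with blue below and red above the mean and colour clipped at -2 and 2. Most rows are blue on the wild-type small-intestine arrays and red on the knockout small-intestine arrays. Col7a1, Col9a1, Col22a1, Col24a1 and Col28a1 are among those that run otherwise.

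Type XVIII, a basement-membrane proteoglycan whose end piece is endostatin, gave the smallest p. The Col18a1 probe (chr10:76514926-76514985, minus strand, mm9) read 3.82 and 3.18 on wild-type small-intestine arrays 2 and 3, and 5.71 and 5.32 on the knockout ones. It read 3.35 and 3.21 in wild-type and 3.87 and 3.63 in knockout large intestine. The knockout arrays stood above the wild-type arrays in both segments, without overlap. Col18a1 was 4.04-fold higher in knockout small intestine (2.02 ± 0.28 SE, limma adjusted p = 0.0225, n = 2 arrays per group), and the second probe of the gene also read higher in both segments. In the large intestine the difference was 0.46 ± 0.28 (adjusted p = 0.503) and did not pass. Col15a1, the other multiplexin, had differences of 0.29 ± 0.29 in small (adjusted p = 0.552) and -0.86 ± 0.29 in large intestine (adjusted p = 0.308).

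Among the fibrillar chains, which assemble into the striated fibrils of connective tissue, 1 of 11 rose in knockout small intestine, where 6.38% of all genes rose. All 11 differences were above 0, from 0.31 to 1.99, as were 42.8% of all genes. The one that passed was Col11a1, a minor chain that joins type V chains inside fibrils (chr3:113923185-113923244, plus strand). It read -4.48 and -5.43 in wild-type and -3.27 and -2.67 in knockout small intestine, 3.97-fold higher (1.99 ± 0.46 SE, limma adjusted p = 0.0460). Its large-intestine arrays read -3.16 and -3.89 in wild type and -3.58 and -4.41 in knockout, and those groups overlap.

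The major fibrillar chains of type I and III did not pass in the small intestine. Col1a1, whose product pairs with that of Col1a2 in type I collagen, read 5.90 and 5.44 in wild-type and 6.14 and 6.02 in knockout small intestine, and 5.93 and 5.82 against 5.93 and 5.53 in large intestine. Its knockout difference was 0.41 ± 0.24 SE in small (limma adjusted p = 0.296) and -0.15 ± 0.24 in large intestine (adjusted p = 0.807). Col1a2 read 6.20 and 5.66 in wild-type and 7.09 and 6.81 in knockout small intestine, and 6.66 and 6.71 against 6.58 and 6.09 in large intestine. Its differences were 1.02 ± 0.27 (adjusted p = 0.0595) and -0.35 ± 0.27 (adjusted p = 0.593). The Col1a2 groups did not overlap in either segment, above in the small and below in the large intestine. Col3a1, the single chain of type III collagen in soft tissue, read 5.78 and 5.28 in wild-type and 6.35 and 6.56 in knockout small intestine, and 6.41 and 6.47 against 6.28 and 5.91 in large intestine. Its differences were 0.92 ± 0.25 (adjusted p = 0.0597) and -0.35 ± 0.25 (adjusted p = 0.567), and its groups did not overlap either.

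The type V chains, which start and limit fibrils, lay just above the threshold in the small intestine, with differences of 1.21 for Col5a1 (adjusted p = 0.0584), 1.40 for Col5a2 (0.0588) and 1.83 for Col5a3 (0.0626). Col5a2 read 0.26 and -0.50 in wild-type and 0.98 and 1.58 in knockout small intestine, and 1.25 and 1.21 against 0.94 and 0.20 in large intestine. Col2a1, the cartilage chain, was well above background on 6 of 8 arrays and differed by 0.52 ± 0.56 in the small intestine. Markers of cartilage and bone, as a list, had 0 of 6 passing there and a median of -0.39.

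Of the chains that sit on or near fibrils (the FACIT group and Col16a1), 2 of 7 rose in knockout small intestine. Of all genes 6.38% rose. Col20a1 (chr2:180752070-180752129, plus strand) read -1.83 and -2.69 in wild-type and -0.58 and 0.35 in knockout small intestine, a 4.42-fold difference (2.14 ± 0.40 SE, limma adjusted p = 0.0352). In large intestine it read -2.22 and -1.81 in wild type and -2.22 and -2.17 in knockout, so its high values lie in 1 of the 4 groups. Col16a1 (chr4:129776333-129776392, plus strand) read 3.57 and 3.17 in wild-type and 4.55 and 4.93 in knockout small intestine, 2.58-fold higher (1.37 ± 0.27, adjusted p = 0.0376). Its large-intestine arrays read 4.72 and 4.84 in wild type and 4.47 and 3.93 in knockout. The lower end of the knockout small-intestine arrays thus lies below both wild-type large-intestine arrays, and the knockout large-intestine arrays lie lower still.

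The other chains of this group were mixed. Col9a2, a chain of type IX collagen, read -1.27 and -1.86 in wild-type and -0.51 and 0.60 in knockout small intestine, with a difference of 1.61 ± 0.41 that did not pass (adjusted p = 0.0537). Col14a1 and Col12a1 differed by 1.44 ± 0.43 and 0.90 ± 0.41 (adjusted p = 0.0722 and 0.187). Col22a1, which marks junctions of muscle and tendon, differed by -0.26 ± 0.30 and was the 1 chain of this group below 0.

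Type VIII chains form short-chain networks around vessels and smooth muscle. Col8a1 (chr16:57624471-57624530, minus strand) read -2.16 and -2.33 in wild-type and -0.86 and -0.14 in knockout small intestine, 3.36-fold higher (1.75 ± 0.40 SE, limma adjusted p = 0.0446). It read -0.21 and -0.41 in wild-type and -0.05 and -1.12 in knockout large intestine, where the groups overlap. Col8a2 read -2.37 and -3.08 in wild-type and -1.95 and -0.55 in knockout small intestine (1.48 ± 0.47, adjusted p = 0.0839). Its large-intestine arrays read -0.97 and -0.71 in wild type and -1.01 and -0.86 in knockout.

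Among the transmembrane collagens, Col13a1, a chain of cell contacts with the matrix, passed in the small intestine. It read -4.19 and -4.64 in wild-type and -3.13 and -3.13 in knockout small intestine, 2.44-fold higher (1.29 ± 0.26 SE, limma adjusted p = 0.0378). In large intestine it read -4.58 and -4.62 in wild type and -3.63 and -4.18 in knockout (0.70 ± 0.26, adjusted p = 0.336). All 4 knockout arrays stood above all 4 wild-type arrays for Col13a1, which held for no other tested collagen gene and for 2.12% of all genes, though the lowest knockout array (-4.18) and the highest wild-type array (-4.19) are close. Col17a1, a hemidesmosome component of epithelia, read -5.13 and -5.46 in wild-type and -4.72 and -4.26 in knockout small intestine (0.81 ± 0.26, adjusted p = 0.0907). Col23a1 read -0.84 and -0.90 in wild-type and -0.21 and 0.17 in knockout small intestine (0.85 ± 0.29, adjusted p = 0.102).

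**Figure D2:**
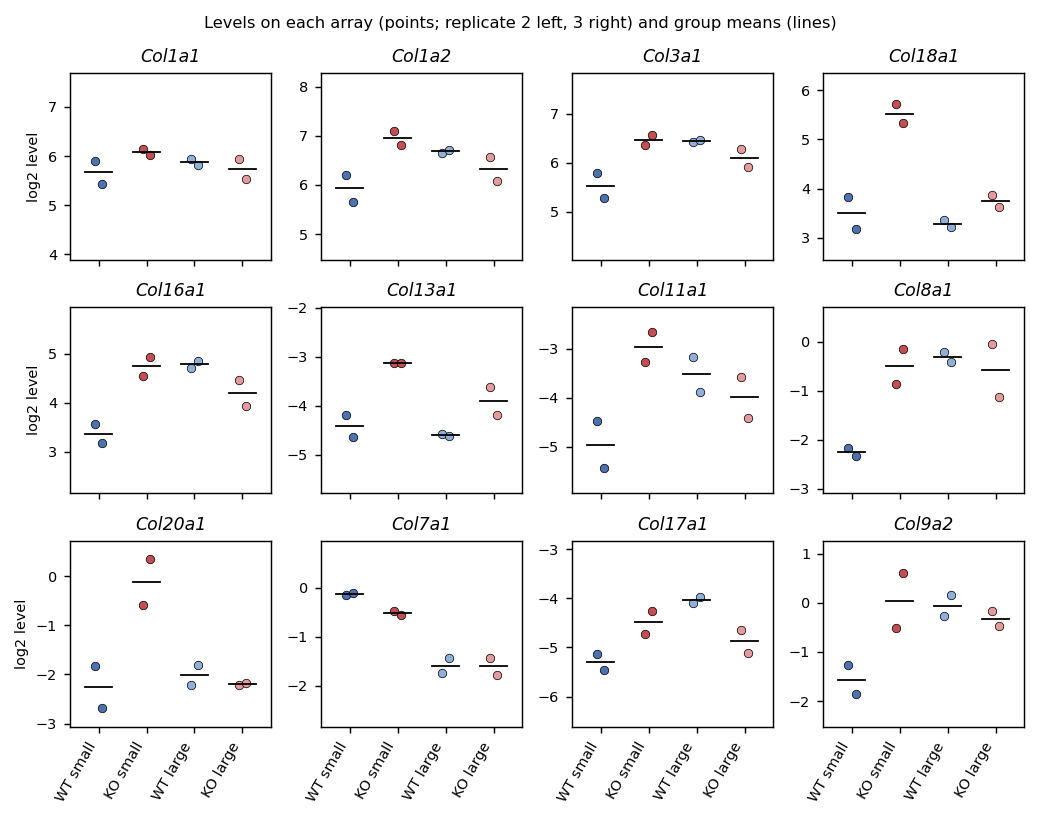
Log2 level of 12 collagen genes in the 4 groups, with 1 point per array (replicate 2 left, 3 right) and a line at the group mean; each panel spans the same number of log2 units. Col18a1 and Col20a1 are highest in knockout small intestine, Col16a1 and Col8a1 are lowest in wild-type small intestine, and Col7a1 is lower in both large-intestine groups than in both small-intestine groups.

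Type VI chains, which form beaded filaments close to cells, differed by 0.66 ± 0.32 for Col6a1 and 0.78 ± 0.32 for Col6a2 in knockout small intestine and did not pass (limma adjusted p = 0.212 and 0.153). Col6a2 read 2.58 and 2.58 in wild-type and 3.08 and 3.63 in knockout small intestine, and 2.68 and 2.87 against 2.89 and 2.09 in large intestine. Col7a1, which forms the anchoring fibrils beneath stratified epithelia, went the other way, at -0.15 and -0.10 in wild-type and -0.47 and -0.55 in knockout small intestine (-0.39 ± 0.21, adjusted p = 0.269). Col28a1 was near background: 5 of 8 arrays were well above it, and 0 of the 2 knockout small-intestine arrays. It read -5.10 and -8.75 in wild-type and -9.26 and -6.69 in knockout small intestine, and the wild-type arrays lie further apart than any pair of group means, so no fold is given. In large intestine it read -4.75 and -6.27 in wild type and -6.51 and -5.13 in knockout.

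The small-intestine difference was larger between the arrays numbered 3. Between the arrays numbered 2 the knockout was higher for 27 of 30 collagen genes with a median of 0.60, and between those numbered 3 for 28 of 30 with a median of 1.44. Over all genes the medians were -0.04 and -0.12. Array 3 of the wild-type small intestine had the lowest median deviation of the 30 genes from their means (-0.77) and array 3 of the knockout small intestine the highest (0.78). The calls are sensitive to single arrays. None of the 30 passed when array 3 of either small-intestine group or either wild-type large-intestine array was left out, and 10 passed without array 2 of the knockout small intestine. The large-intestine arrays enter the small-intestine test through the shared spread and the choice of kept probes, not through the difference itself. When a large-intestine array was left out the kept probes stayed the same, so only the shared spread and its degrees of freedom changed.

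In the large intestine no collagen gene passed in limma, and 0.308% of all genes did. At an unadjusted p under 0.05 there were 7 of 30 (13.3% of all genes). The difference was below 0 for 28 of 30, with a median of -0.38; of all genes 49.9% were above 0. Both knockout arrays read below both wild-type arrays for 12 of 30 (27.7% of all genes) and above them for 2, Col13a1 and Col18a1 (27.6% of all genes). The smallest p was for Col24a1, a fibrillar chain known from bone and cornea, at -1.06 ± 0.20 SE (adjusted p = 0.132). The largest size was for Col9a1 at -2.05 ± 0.56 (adjusted p = 0.236). The second, dimmer kept probe of Col9a1 differed by only -0.0016 there. Between the arrays numbered 2 the knockout was lower for 19 of 30 with a median of -0.11, and between those numbered 3 for 27 of 30 with a median of -0.70. Over all genes the medians were 0.01 and -0.02. The lower collagen values lay mostly on array 3 of the knockout large intestine. It is also 1 of the 2 large-intestine arrays with more pancreatic transcripts. The median was -0.14 without that array and -0.75 without array 2 of the knockout, the one with liver transcripts, and 0 of 30 passed in either case.

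**Figure D3:**
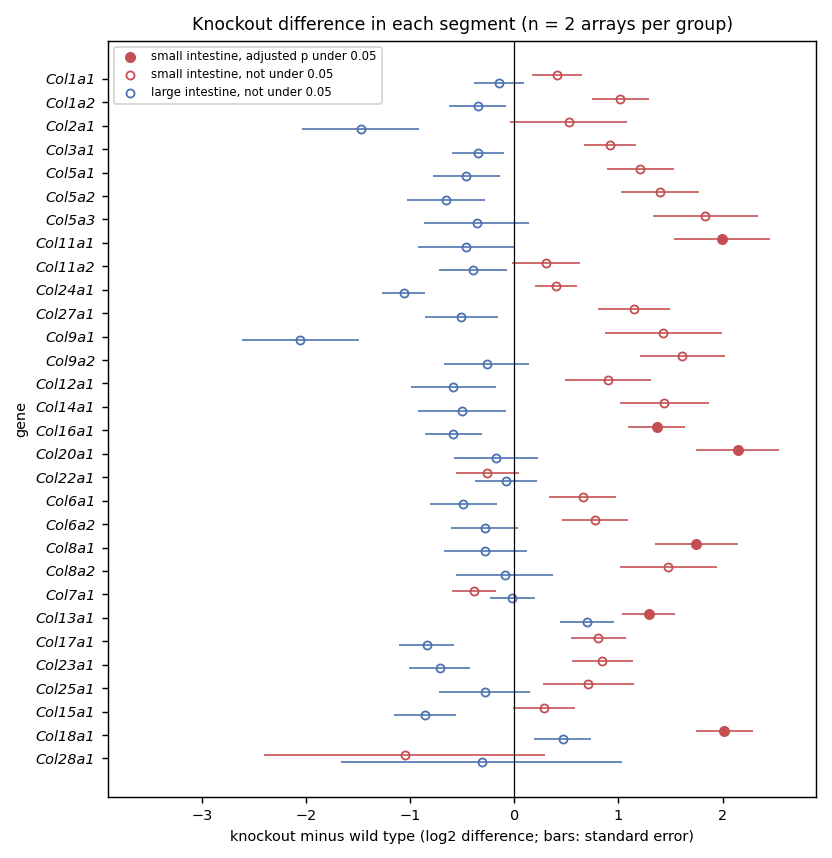
Knockout minus wild-type log2 difference of each tested collagen gene in small (red) and large intestine (blue), with standard errors and n = 2 arrays per group; filled points have an adjusted p under 0.05. Of the red points 27 of 30 lie right of 0 and of the blue points 28 of 30 lie left of it, and the 6 filled points are red.

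The difference between the segments' knockout effects was tested as an interaction term. None of the 30 collagen genes passed it in limma, and 0.139% of all genes did. The lowest adjusted p among them was 0.0999. At an unadjusted p under 0.05 there were 21 of 30, against 25.8% of all genes. The interaction was below 0 for 27 of 30, with a median of -1.56 against 0.14 over all genes. For 11 of 30, the knockout arrays were all above the wild-type arrays in the small and all below them in the large intestine, a pattern of 10% of all genes. These 11 were Col1a2, Col3a1, Col5a2, Col5a3, Col24a1, Col27a1, Col9a1, Col16a1, Col17a1, Col23a1 and Col15a1. Each was read on its brightest kept probe. The second kept probe of Col9a1 differed by -0.51 in small and -0.0016 in large intestine. The interaction was above 0 for 57% of all genes. Without array 2 of the knockout small intestine 3 collagen genes passed the interaction test. Over both segments in 1 additive fit, 0 of 30 passed in limma (0.651% of all genes), and 2 of 30 had an unadjusted p under 0.05 (15.2% of all genes). The difference over both segments was above 0 for 21 of 30 (48.1% of all genes), and the 4 knockout arrays were all below the 4 wild-type arrays for 0 of 30 (3.74% of all genes). The smallest p values were those of Col13a1 (0.99 ± 0.21 SE, limma adjusted p = 0.0878) and Col18a1 (1.24 ± 0.34, adjusted p = 0.150).

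In wild-type pups, collagen genes tended to read higher in the large than in the small intestine. Of 30 tested, 8 were higher and 1 was lower at an adjusted p under 0.05 in limma, against 9.93% and 9.92% of all genes. The difference was above 0 for 25 of 30 (50.1% of all genes), with a median of 0.78, and 13 had an unadjusted p under 0.05 (36.2% of all genes). Both large-intestine arrays stood above both small-intestine arrays for 19 of 30 (34.3% of all genes) and below them for 2 (35% of all genes). These values share the wild-type small-intestine arrays with the knockout comparison above, so the 2 sets of differences are not independent.

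The 8 that were higher come from 4 classes. Both type VIII chains passed, Col8a1 at 1.94 ± 0.40 SE (3.83-fold, limma adjusted p = 0.0204) and Col8a2 at 1.89 ± 0.47 (3.70-fold, adjusted p = 0.0357). The 2 kept probes of Col8a2 did not go the same way in this comparison. Of the transmembrane chains, Col17a1 (1.26 ± 0.26, adjusted p = 0.0221) and Col23a1 (1.11 ± 0.29, adjusted p = 0.0414) were higher. Col17a1 read -4.10 and -3.98 on the wild-type large-intestine arrays and -4.64 and -5.11 on the knockout ones, and Col23a1 read 0.26 and 0.22 against -0.08 and -0.86. The fibril-bound Col16a1 (1.41 ± 0.27, adjusted p = 0.0172) and Col9a2 (1.51 ± 0.41, adjusted p = 0.0451) were higher, as were the fibrillar Col3a1 (0.91 ± 0.25, adjusted p = 0.0460) and Col5a2 (1.35 ± 0.37, adjusted p = 0.0476). Col9a2 read -0.27 and 0.15 in wild-type and -0.17 and -0.48 in knockout large intestine.

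Col7a1 was the 1 collagen gene lower in the large intestine, by -1.46 ± 0.21 SE (2.76-fold, limma adjusted p = 0.00679). Its probe (chr9:108886861-108886920, plus strand) read -1.74 and -1.43 in wild-type and -1.43 and -1.78 in knockout large intestine, all below the 4 small-intestine arrays. Leaving out array 2 of the wild-type large intestine took the count of passing collagen genes from 9 to 0, and leaving out array 3 of the wild-type large or small intestine took it to 1.

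Genes that build and shape collagen were read in the same way, from lists of known function. In knockout small intestine, 4 of 21 genes for procollagen folding and modification rose and 0 fell, with a median of 0.24; of all genes 6.38% rose and 3.51% fell. They were P4ha2, a prolyl 4-hydroxylase subunit (1.51 ± 0.28 SE, limma adjusted p = 0.0340), the chaperones Fkbp10 (1.38 ± 0.27, adjusted p = 0.0370) and Serpinh1 (1.07 ± 0.25, adjusted p = 0.0477), and P3h4 (1.08 ± 0.24, adjusted p = 0.0432), which works with lysyl hydroxylase. Of 7 genes for cleavage of procollagen, Adamts2, the amino-end proteinase, rose (1.46 ± 0.34, adjusted p = 0.0463). Of 5 lysyl oxidase genes, which crosslink fibrils, Lox (1.92 ± 0.36, adjusted p = 0.0355) and Loxl1 (1.93 ± 0.39, adjusted p = 0.0379) rose, and all 5 differences were above 0.

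Of 14 proteins that decorate fibrils, 5 rose, with a median of 1.15 and all 14 above 0; of all genes 6.38% rose and 42.8% were above 0. Among them were the leucine-rich proteoglycans Bgn (1.12 ± 0.21 SE, limma adjusted p = 0.0352), Dcn (0.97 ± 0.20, adjusted p = 0.0385), Fmod (1.84 ± 0.39, adjusted p = 0.0398) and Lum (1.15 ± 0.26, adjusted p = 0.0434). Of 10 collagen receptors 1 rose, which is near the 6.38% of all genes. It was Mrc2, an endocytic receptor that takes up collagen (1.62 ± 0.36, adjusted p = 0.0432). Itga2 read lower in the knockout, at -3.29 and -3.57 against -2.97 and -2.60 in wild-type small intestine. Of 7 enzymes that degrade collagen, the protease Ctsk (1.59 ± 0.31, adjusted p = 0.0366) and Mmp8, the collagenase of neutrophils, rose. Mmp8 was not well above background on either wild-type small-intestine array (-7.12 and -8.19, against -5.43 and -4.47 in knockout). It was therefore at least 3.83-fold higher in the knockout, a bound against the lowest signal well above background (limma adjusted p = 0.0394). Of 11 TGF-beta ligands and targets, Tgfbi (1.01 ± 0.19, adjusted p = 0.0361), Ltbp2 (1.92 ± 0.39, adjusted p = 0.0379) and the receptor gene Tgfbr2 (1.03 ± 0.23, adjusted p = 0.0425) rose. Smad7, of the same list, read lower in the knockout, at 1.32 and 0.44 against 1.78 and 1.38 in wild-type small intestine.

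In the large intestine 0 genes of these 7 lists passed, with list medians from -0.20 to -0.45. Mmp8 read -6.90 and -8.20 in wild-type large intestine, with 1 of these 2 arrays well above background, and -4.78 and -4.59 in knockout, and it did not pass there (limma adjusted p = 0.137). Over both segments it passed (adjusted p = 0.0427), with all 4 knockout arrays above all 4 wild-type arrays; no size is given, because its wild-type values lie near background. The type IV genes, which build basement membranes, had 0 of 5 passing in either segment, with medians of 0.63 in small and -0.26 in large intestine; the smallest adjusted p values in the small intestine were 0.0647 for Col4a1 and 0.0714 for Col4a2, the latter with a difference of 1.04 ± 0.30. Their difference from the other collagen genes was not tested.

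In wild-type large against small intestine, Lox was higher (2.45 ± 0.36 SE, limma adjusted p = 0.00711), as 1 of 5 crosslinking genes. Of the 21 folding genes 7 were higher and 1 lower, against 9.93% and 9.92% of all genes. P4ha2 (1.82 ± 0.28, adjusted p = 0.0079) and Creb3l1, a transcription factor of collagen-secreting cells (2.46 ± 0.40, adjusted p = 0.0100), were among the higher. P4hb, which also acts as a general disulfide isomerase, was lower (-2.08 ± 0.31, adjusted p = 0.0070). Of the 14 fibril-decorating genes 3 were higher and 1 lower, and 13 differences were above 0. Postn (1.72 ± 0.25, adjusted p = 0.0068) and Aspn (1.77 ± 0.30, adjusted p = 0.0109) were among the higher. Podn was the lower one and had the largest difference of the list, at -2.56. Its mean level was 1.40 in wild-type small and -1.16 in wild-type large intestine.

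Markers of cell types of the gut wall were read beside the collagen genes. In knockout small intestine 3 of 12 fibroblast markers rose (median 0.91), 1 of 10 smooth muscle markers (median 1.55), 5 of 6 mesothelium markers (median 1.95) and 1 of 6 skeletal muscle markers (median 1.85), and 0 of these 34 fell; of all genes 6.38% rose and 3.51% fell. The 1 of 10 smooth muscle markers that passed is near that share. Of 10 general epithelial markers 3 fell and 0 rose (median -0.33). For endothelium 0 of 6 passed (median 0.33). Summed over the list on the linear scale, where 1 is the 75th-percentile signal of an array, smooth muscle markers came to 309 and 169 in wild-type and 473 and 590 in knockout small intestine. The 2 wild-type sums lie below both knockout sums, and array 3 of the wild type is the lowest of all 8 arrays. Fibroblast markers came to 64.3 and 50.9 against 100 and 130, and mesothelium markers to 7.55 and 4.75 against 16.9 and 24.2. Epithelial markers came to 373 and 449 against 407 and 350, which overlap. The part of these cell types in the collagen differences was not tested.

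**Figure D4:**
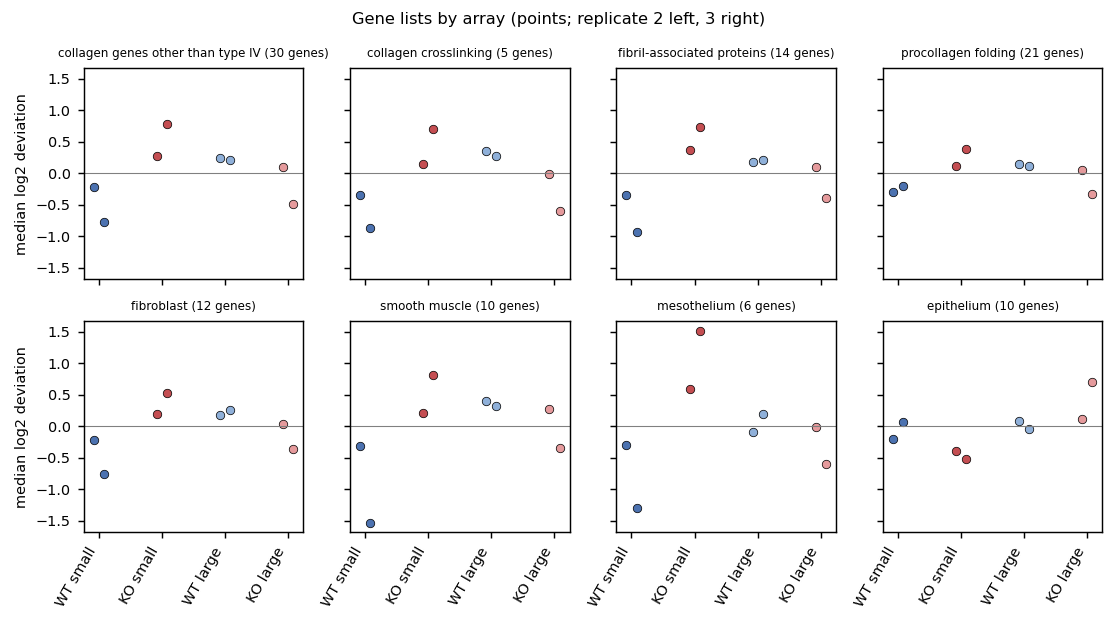
Median log2 deviation of the genes of 8 lists from their own means over the 8 arrays, with 1 point per array in each of the 4 groups (replicate 2 left, 3 right). The collagen, crosslinking, fibril-associated, fibroblast, smooth muscle and mesothelium lists are lowest on array 3 of the wild-type small intestine and highest on array 3 of the knockout small intestine.

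In the large intestine the same marker lists had 0 passing, with medians of -0.36 for fibroblast, -0.35 for smooth muscle and -0.36 for mesothelium, and 0.37 for epithelium, where all 10 differences were above 0. Smooth muscle markers summed to 518 and 568 in wild-type and 529 and 476 in knockout large intestine. Of the 4 large-intestine arrays, array 3 of the knockout was the lowest for the collagen genes, the smooth muscle list and the fibroblast list, with median deviations of -0.48, -0.34 and -0.35. In wild-type large against small intestine 5 of 12 fibroblast and 4 of 10 smooth muscle markers were higher and 0 lower, against 9.93% and 9.92% of all genes. Markers of enteric glia and Schwann cells had 3 of 6 rising in knockout small intestine, where 6.38% of all genes rose. Their summed levels were 14.9 and 16.5 in wild-type and 15.7 and 14.3 in knockout small-intestine arrays. The largest part of these sums was Mbp, which read 3.57 and 3.91 in wild-type and 3.38 and 2.79 in knockout small intestine. The median deviation of the list was -0.17 and -0.84 in wild-type and 0.78 and 1.13 in knockout small intestine.

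Of the 34 genes, 4 were not tested, because their probes were not well above background on both arrays of any group. Col10a1, the chain of hypertrophic cartilage, was above it on 1 of 8 arrays for each of its 2 probes. Col19a1, Col6a6 and Col9a3 were above it on 0 of 8 arrays. For 9 tested genes over 1 probe was kept, and in the small intestine all kept probes of a gene read the same way except for Col9a1, where 1 of 2 was higher.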

How the data were processed

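The members and the gene lists were chosen with earlier results of these data known. Agilent Feature Extraction 10.7.3.1 produced the deposited intensity of each spot and subtracted its background, per the file headers, without scaling 1 array to another; flags mark spots well above background and outlier spots. Probe positions are on mm9. The authors' deposited table of normalized intensity, with column medians of 158.06 to 160.06, served as an alternative; its background step is not given in the sources used here. R 3.3.0 is named in the submitters' processing notes.

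Here, each processed signal was put on the log2 scale relative to the 75th percentile of its array (2642.5 to 3571.8 in signal units). The number of arrays, 2 per group, limits the precision. Outlier-flagged spots were dropped (148 to 312 per array). The filter on dim probes asked that both arrays of some group be well above background. Names came from the accession (26056 probes), current symbol (3200), older symbol (927) or the file's name (2677) through a table of RefSeq genes (GRCm38.p6), used for names and promoters, and the brightest kept probe stood for a gene. Groups were set by the sample titles.

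In R 4.3.3, with data.table at version 1.17.8 for reading, limma 3.58.1 fitted 1 mean per group (4 residual degrees of freedom), or genotype and segment as additive terms (5). P-values were adjusted by Benjamini-Hochberg over 20132 genes, and a gene passed under 0.05. The fit was tested on simulated data. Values on all arrays are printed for Col1a1, Col1a2, Col3a1, for members that passed and for the member of each structural class with the largest knockout difference over both segments. In other lists up to 4 genes with the smallest p per comparison are named. Arrays of a group correlated at 0.980 to 0.991 across genes. Alternatives were another background correction, quantile scaling, the deposited values, other filters, the mean of probes, a trended and robust prior, a replicate block, the compared groups alone and each array left out.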

Additional observations from a re-analysis of the deposited data

How the results depend on the processing

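With 2 arrays per group the median standard error within a segment was 0.28 (log2). In the small intestine 6 collagen genes passed; 11 did with normexp background correction, 10 with the deposited table, 12 with probes well above background on all 8 arrays, 12 with a trended and robust prior, 1 without the background filter, 0 with the compared groups alone, and 0 to 10 with 1 array left out. In wild-type large against small intestine 9 passed, 4 without the background filter and 0 to 10 with 1 array left out. For the interaction 0 passed, and 0 to 3 with 1 array left out. The 2 large-intestine arrays rich in pancreatic transcripts, chosen after seeing the data, were also left out together. In the large intestine and over both segments 0 passed under every alternative run. With a replicate block, where numbers and slide rows coincide, 2 passed in the small intestine and 5 between segments; same-number deviations of knockout and wild type correlated at 0.107 in small and 0.0065 in large intestine, and those of small and large intestine at 0.217 in wild type and 0.056 in knockout; as each of these compares 2 pairs, the numbers are not shown to pair the samples. Medians over the collagen genes kept their sign under all alternatives: 0.78 to 1.26 in small and -0.75 to -0.14 in large intestine, 0.45 to 0.98 between wild-type segments and -1.79 to -1.30 for the interaction. Col1a1 in the large intestine ranged from -0.34 to 0.053 with 1 array left out, the latter without array 3 of the knockout large intestine. It turned to 0.11 without both pancreas-rich large-intestine arrays. Each alternative without arrays has fewer samples; the cause of the other shifts was not tested.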

Other observations

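Of the collagen genes that the array lists under older names, 3 fall outside the naming rule and had kept probes. Col26a1, listed as Emid2, read 0.56 and 0.00 in wild-type and 1.40 and 1.99 in knockout small intestine, a difference of 1.41 ± 0.35 SE that did not pass (limma adjusted p = 0.0521), and it was higher in wild-type large than small intestine (1.39 ± 0.35, adjusted p = 0.0381). Col6a5, a type VI chain listed as Gm7455, was lower in wild-type large than small intestine (-3.70 ± 0.90, adjusted p = 0.0339), at -3.26 and -4.07 against 0.69 and -0.62. That difference is larger than any of the 30 tested genes showed in this comparison, where they ran from -1.46 for Col7a1 to 1.94 for Col8a1. Col6a4, listed as Dvwa, did not pass (-0.61 ± 0.44, adjusted p = 0.356). Within a number, the wild-type large minus small median of the 30 genes was 0.44 for arrays 2 and 1.09 for arrays 3. Over all genes the medians were -0.03 and 0.02.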
